A study of Mus musculus with 8 samples.

Results

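The genes described here are 37 genes of mitosis and of the spindle, measured by RNA sequencing in sorted mouse primordial germ cells with and without Prmt5. They were taken from a fixed list of names: proliferation markers, cyclins with Cdk1 and its phosphatases, partners of the anaphase-promoting complex, spindle checkpoint genes, kinetochore genes, mitotic kinases with the chromosomal passenger complex, kinesins with other spindle-binding proteins, and cytokinesis genes. All 37 had counts and all 37 passed the filter on low counts, among 21444 genes with counts and 10990 genes tested. Primordial germ cells are the embryonic precursors of sperm and eggs. They were sorted at embryonic day 11.5 by a green fluorescent reporter driven by part of the Oct4 promoter, on a mixed C57BL/6 and 129 background. The 4 Control libraries were of genotype Blimp1Cre;Prmt5flox/+ and the 4 Prmt5 KO libraries of genotype Blimp1Cre;Prmt5flox/flox, so both groups carried Cre and at least 1 floxed copy. Cre was driven by Blimp1, a gene active in germ cell precursors, and the Control cells kept 1 copy of Prmt5 that was not floxed. Each library came from 50 pg of total RNA, amplified by a published method for very small inputs.

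A dividing cell enters mitosis when Cdk1, bound to cyclin A or cyclin B, is freed of inhibitory phosphates by Cdc25 phosphatases. Kinesin motors and their partners then build the spindle, kinetochores attach chromosomes to it, and the spindle checkpoint holds back the anaphase-promoting complex until all are attached. Genes of this programme are transcribed together in late cell cycle through CCAAT boxes and the CHR, an element of the promoter bound by the MuvB complexes, which act as repressors with p130 or p107 (the DREAM complex) and as activators with B-Myb and FoxM1. Germ cells of this stage divide in the genital ridge before they enter meiosis in females or arrest in males. Prmt5 encodes an enzyme that places symmetric methyl marks on arginines of histones and of proteins that assemble the spliceosome.

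Promoter windows of the members were searched for these elements, since the genes are known for shared transcription. RefSeq sequence on GRCm38.p6 was given for 31 of the 37, from 250 bases before to 50 bases after the start of transcription. The CHR (TTTGAA, or its variant TTCGAA, on either strand) was present in 25 of the 31 members (80.6%) and in 21.7% of 27025 genes with such a window. A CCAAT box (CCAAT, on either strand) was present in 22 of the 31 (71.0%) and in 41.1% of all. Both were present in 20 of the 31 (64.5%) and in 8.61% of all. Of 36 distinct CHR matches in the members' windows, 1 overlapped a CCAAT match. A match is only a match of letters. The 150 bases before the start are shown for the 5 members whose Control and Prmt5 KO libraries did not overlap in level, with matches in capitals.
Kif11, chr19:37376232-37376381, plus strand: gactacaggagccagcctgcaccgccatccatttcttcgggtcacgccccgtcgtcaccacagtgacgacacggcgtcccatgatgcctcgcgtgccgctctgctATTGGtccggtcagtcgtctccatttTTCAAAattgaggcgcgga
Cdkn3, chr14:46760391-46760540, plus strand: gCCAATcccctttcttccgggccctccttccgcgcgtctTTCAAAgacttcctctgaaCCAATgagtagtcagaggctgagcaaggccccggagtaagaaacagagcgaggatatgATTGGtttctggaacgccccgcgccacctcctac
Aurka, chr2:172370571-172370720, minus strand: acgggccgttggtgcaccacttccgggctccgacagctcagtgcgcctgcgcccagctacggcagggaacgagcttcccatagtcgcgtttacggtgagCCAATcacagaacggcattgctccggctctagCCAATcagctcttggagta
Nusap1, chr2:119618148-119618297, plus strand: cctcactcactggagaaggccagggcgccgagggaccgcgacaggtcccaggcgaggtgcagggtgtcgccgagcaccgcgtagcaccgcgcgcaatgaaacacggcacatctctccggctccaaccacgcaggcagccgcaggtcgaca
Birc5, chr11:117849087-117849236, plus strand: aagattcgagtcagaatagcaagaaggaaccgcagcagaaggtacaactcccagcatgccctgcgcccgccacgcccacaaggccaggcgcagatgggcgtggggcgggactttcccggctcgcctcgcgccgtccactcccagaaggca
Kif11 held a CCAAT box in reverse 45 bases and a CHR in reverse 19 bases before its start. Cdkn3 held a CHR in reverse 111 bases before its start, and 3 CCAAT matches in the stretch shown. Aurka held 2 CCAAT boxes here, and its CHR lay after the start. For Nusap1 and Birc5 no match was in the window, so the 5 members whose groups were apart in level included promoters with and without these letters.

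The libraries held between 1811428 and 6549504 gene counts, with Control 2 and Control 3 the shallowest. Prmt5 was at 89.4 to 172 CPM (counts relative to library size, with sizes scaled by the TMM method) in Control and at 26.4 to 40.5 CPM in Prmt5 KO. Its log2 fold change was -1.95 (standard error 0.272, edgeR adjusted p = 0.0389), but on leaving out 1 library at a time the edgeR adjusted p ran from 0.0198 to 0.234, and it stayed under 0.05 only without Control 1. The labelled cell type was checked on 14 markers of primordial germ cells, all of them tested: their summed level was 3765 to 4379 CPM in Control and 3904 to 4524 CPM in Prmt5 KO. The summed level of 15 markers of somatic gonad and mesonephros was 134 to 215 CPM in Control, 659 CPM in Prmt5 KO 1 and 170 to 218 CPM in the other Prmt5 KO libraries. Of these 15, 6 were tested, 0 passed, 3 (Acta2, Col1a1 and Col1a2) were higher at an unadjusted p under 0.05, and the median log2 fold change of the 6 was 1.91. Amh and Foxl2, which mark supporting cells, had no count in any library, and whether such cells express them at this stage was not tested. The 6 endothelial markers summed to 279 to 360 CPM in Control and 296 to 395 CPM in Prmt5 KO, most of it on Pecam1, which germ cells also express. Of the 3 tested, Tek, a receptor of endothelial cells, was at 28.9, 4.46, 7.68 and 8.09 CPM in Control 1 to 4 and at 72.4, 12.2, 53.7 and 71.0 CPM in Prmt5 KO 1 to 4. Its log2 fold change was 2.05 (edgeR adjusted p = 0.409, DESeq2 adjusted p = 0.0430), with overlapping groups. Egfl7 was at -1.18 on that scale, and of the 3 not tested, Kdr and Emcn had no count in Prmt5 KO. The part of somatic and endothelial RNA in the levels of the mitosis genes was not tested, beyond the values given without Prmt5 KO 1. The 9 markers of blood and macrophages summed to 20.8 to 43.1 and 6.48 to 43.6 CPM, with no count of Hbb-bt, Hba-a1 or Hba-a2. Whether libraries within a group derive from different embryos is not stated in the labels, so each p-value reflects only how far these libraries scatter, and some of that scatter may be technical.

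The comparison asks how the mitotic programme of germ cells stands when Prmt5 is lost. None of the 37 genes passed an adjusted p of 0.05 in the edgeR quasi-likelihood test, where 0.0273% of all 10990 genes did (0.0182% higher and 0.0091% lower in Prmt5 KO). Most members lay slightly above Control: 27 of 37 (73.0%) had a log2 fold change above 0, against 52.7% of all genes, and their median was 0.21, against 0.03 over all genes. The size of the log2 fold change was under 0.35 for 25 of the 37. At an unadjusted p under 0.05 there were 6 members higher in Prmt5 KO (16.2%, against 4.47% of all genes) and 2 lower (5.41%, against 3.69%), 8 in all (21.6%, against 8.15%). The higher ones were Kif11, Nusap1, Birc5, Cdc20, Kif20b and Cenpe, and the lower ones Cdkn3 and Mad2l1. In DESeq2, 2 of the 37 passed an adjusted p of 0.05, Kif11 and Cdkn3, where 0.974% of all genes did, and in limma voom 0 passed, where 0.0091% did. A change in the share of cells in mitosis and a change in RNA per cell cannot be told apart in bulk libraries.

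The median of the members moved with single libraries: it was 0.12 without Prmt5 KO 4, 0.33 without Control 1, and 0.09 without both Prmt5 KO 1 and Prmt5 KO 4. The unadjusted count of 6 higher members became 3 without Control 2 and 3 without Prmt5 KO 1, and the count of 2 lower members became 1 without Control 1, Control 2 or Prmt5 KO 4. The share of all genes at that unadjusted p was taken only with all 8 libraries, so these smaller counts cannot be read against it.

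**Figure D1:**
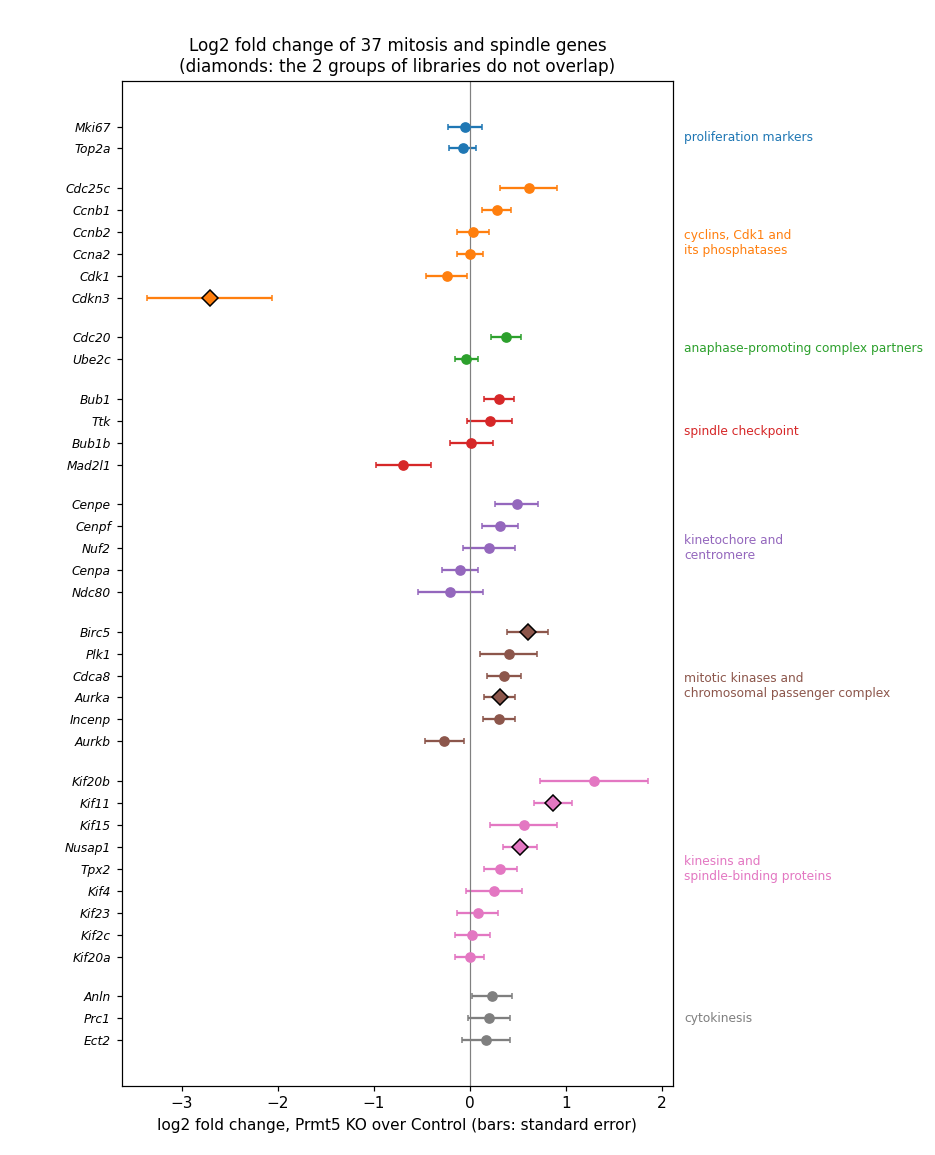
Log2 fold change of each of the 37 genes, Prmt5 KO over Control (x axis), grouped by role, with bars for the standard error; diamonds mark the 5 genes whose 4 Control and 4 Prmt5 KO libraries do not overlap. Cdkn3 lies far to the left at -2.71, Mad2l1 at -0.69, and Kif20b (1.30) and Kif11 (0.87) farthest to the right, while Mki67, Top2a, Ccna2, Ccnb2 and Ube2c lie within 0.08 of 0.

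The groups of libraries did not overlap for 5 of the 37 genes (13.5%), against 4.9% of all genes tested. In 4 of them, Kif11, Nusap1, Birc5 and Aurka, all Prmt5 KO libraries were above all Control libraries (10.8% of members, against 2.63% of all genes). In 1, Cdkn3, all were below (2.7%, against 2.27%). With fewer libraries more genes of any kind do not overlap, and the share of all genes tested in the same libraries is given beside each count. Without Prmt5 KO 3, 8 members were wholly above (21.6%, against 4.12% of all genes) and 2 wholly below (5.41%, against 4.12%). Without Control 3, 2 were wholly below (5.41%, against 3.82%). Without Control 2 and Control 3, 6 were wholly above (16.2%, against 7.38%) and 4 wholly below (10.8%, against 7.59%). Without Prmt5 KO 1 and Prmt5 KO 4, 4 were wholly above (10.8%, against 8.93%) and 2 wholly below (5.41%, against 7.38%), near the shares of all genes.

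Among cyclins, Cdk1 and its phosphatases, Cdkn3 had the lowest log2 fold change of the 37 genes. Cdkn3 (ENSMUSG00000037628, chr14:46760541-46771669, plus strand) encodes a phosphatase that removes the activating phosphate from Cdk1 and Cdk2. Its level was 13.4, 11.6, 12.1 and 12.0 CPM in Control 1 to 4, and 0.844, 1.74, 3.27 and 1.50 CPM in Prmt5 KO 1 to 4. The Control libraries lay close together, and every Prmt5 KO library was far below them. The mean was 12.2 ± 0.763 CPM over the 4 Control libraries against 1.84 ± 1.03 CPM over the 4 Prmt5 KO libraries (SD), a log2 fold change of -2.71 (standard error 0.655), or 15.3% of the Control level. The gene was scarce, with 79, 26, 22 and 68 counts in Control 1 to 4 against 5, 9, 22 and 6 counts for Prmt5 KO 1 to 4. It ranked 47 of 10990 by p and missed the threshold in edgeR (adjusted p = 0.247), while DESeq2 gave an adjusted p of 0.00886 and limma voom 0.269. In the 19 alternative analyses its log2 fold change was between -3.15 and -2.27 and its adjusted p between 0.00886 and 0.760. Its counts came from the full transcript of 8 exons and 917 bases, the 1 Cdkn3 transcript listed. The targeted gene Prmt5 lies on the same chromosome (chr14:54507187-54517525). The groups differ in the number of floxed Prmt5 copies, on a mixed strain background. Whether strain DNA linked to the floxed copy differs between the groups at Cdkn3 was not tested.

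Of the other genes of that role, Cdc25c was farthest from Control. Cdc25c, the phosphatase that activates Cdk1, was at 35.7, 40.2, 26.9 and 47.8 CPM in Control 1 to 4 and at 72.3, 53.3, 45.5 and 59.8 CPM in Prmt5 KO 1 to 4. All 4 Prmt5 KO libraries were above the Control mean, but the ranges overlapped, since Prmt5 KO 3 lay below Control 4 (log2 fold change 0.61 with a standard error of 0.293, edgeR adjusted p = 0.623). Cyclin B1 (Ccnb1) was at a log2 fold change of 0.28, with all 4 Prmt5 KO libraries above the Control mean, and Cdk1 at -0.24. Cyclin B2 (Ccnb2) was at 286 ± 29.9 CPM over the 4 Control libraries and 292 ± 53.2 CPM over the 4 Prmt5 KO libraries (SD), a log2 fold change of 0.03. Cyclin A2 (Ccna2), whose exons overlap those of Exosc9 on the opposite strand, was at 396 ± 27.9 and 397 ± 53.7 CPM (SD, n = 4), a log2 fold change below 0.01. The standard error of these last 2 was 0.164 and 0.137, so small differences could be missed. In simulated counts the test called 34% of genes changed 2-fold, over genes of differing spread. That share was not taken for genes with the spread of these 2.

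The proliferation markers showed no difference beyond the spread of libraries. Mki67, which encodes the Ki-67 protein that coats mitotic chromosomes, was at 920, 515, 702 and 639 CPM in Control 1 to 4 and at 749, 601, 551 and 775 CPM in Prmt5 KO 1 to 4. Top2a, the topoisomerase that untangles sister chromosomes, was at 928, 779, 626 and 643 CPM in Control and at 719, 768, 664 and 677 CPM in Prmt5 KO. Control 1 was the highest of all 8 libraries for both genes. The log2 fold changes were -0.05 for Mki67 (standard error 0.176) and -0.07 for Top2a (standard error 0.140).

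**Figure D2:**
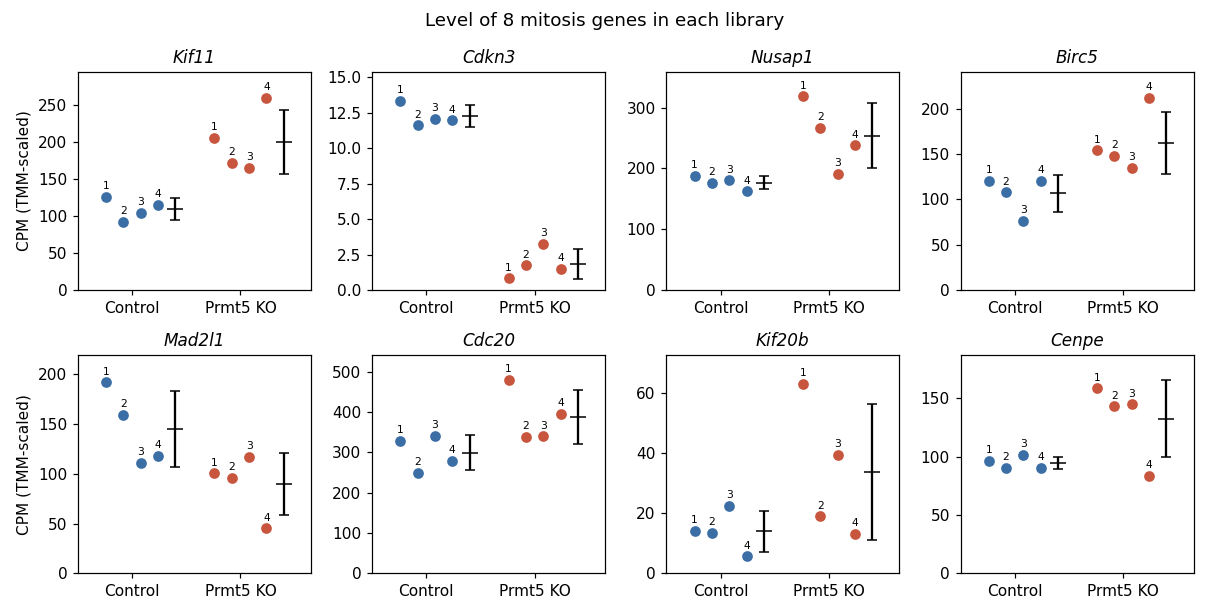
CPM (y axes, linear from 0) in each library of the 8 genes with an unadjusted p under 0.05 in edgeR; numbers are replicates, and black bars are the mean and SD of 4 libraries. Kif11, Cdkn3, Nusap1 and Birc5 have no overlap between groups, while the groups overlap for Mad2l1, Cdc20, Kif20b and Cenpe, and Prmt5 KO 4 is the lowest of all 8 libraries for Mad2l1 and Cenpe.

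Kinesins and spindle-binding proteins held the member of smallest p in edgeR, while Cdkn3 had the smaller p in DESeq2 and limma voom. Kif11 (ENSMUSG00000012443, chr19:37376403-37421859, plus strand) encodes Eg5, the motor that pushes the spindle poles apart. It was at 126, 92.0, 105 and 116 CPM in Control 1 to 4 and at 206, 172, 165 and 259 CPM in Prmt5 KO 1 to 4. Every Prmt5 KO library was above every Control library, with Prmt5 KO 4 the highest. The fold was 1.82, a log2 fold change of 0.87 (standard error 0.198), ranking 35 of 10990. It missed the threshold in edgeR (adjusted p = 0.220) and limma voom (adjusted p = 0.320), and passed in DESeq2 (adjusted p = 0.0135). In the 19 alternative analyses the log2 fold change was between 0.62 and 0.95 and the adjusted p between 0.0135 and 0.809. Without Prmt5 KO 1, the library with the high somatic markers, the log2 fold change was 0.85.

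Nusap1, a microtubule bundler of the spindle, was at 188, 177, 180 and 162 CPM in Control 1 to 4 and at 318, 267, 191 and 238 CPM in Prmt5 KO 1 to 4. The groups were apart by a narrow margin, with Prmt5 KO 3 just above Control 1, and overlapped with no filter on low counts. Its log2 fold change was 0.52 (standard error 0.175, edgeR adjusted p = 0.444), and 0.39 without Prmt5 KO 1. Exons of Nusap1 overlap those of Oip5 on the opposite strand, and since the sources used here give no strand for the counting, its value is uncertain. Kif20b, a kinesin of late mitosis and midbodies, was at 14.2, 13.4, 22.5 and 5.63 CPM in Control 1 to 4 and at 63.0, 19.0, 39.4 and 13.2 CPM in Prmt5 KO 1 to 4. The groups overlapped widely, and Prmt5 KO 1 was the highest. The log2 fold change of 1.30 (standard error 0.561, edgeR adjusted p = 0.580) became 0.80 without Prmt5 KO 1. Of the other 6 genes of this role, Kif15 was at 0.56, Tpx2, the activator of Aurora A on the spindle, at 0.32, Kif4 at 0.25, Kif23 at 0.08, Kif2c at 0.02 and Kif20a within 0.01 of 0 on the log2 fold change scale. Kif20a, a motor of the central spindle and the most abundant gene of the role, was at 629 ± 54.6 CPM over the 4 Control libraries and 628 ± 140 CPM over the 4 Prmt5 KO libraries (SD). Exons of Kif20a overlap those of Cdc23, and exons of Kif4 those of Pdzd11, on the opposite strand.

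In the chromosomal passenger complex, which corrects wrong attachments of chromosomes, the subunits did not all lie on the same side. Birc5, which encodes survivin, was at 121, 108, 76.8 and 121 CPM in Control 1 to 4 and at 154, 148, 135 and 212 CPM in Prmt5 KO 1 to 4. No Prmt5 KO library was as low as any Control library. Its log2 fold change was 0.60 (standard error 0.214, edgeR adjusted p = 0.481). The scaffold Incenp was at 510 ± 80.6 CPM over the 4 Control libraries and 631 ± 132 CPM over the 4 Prmt5 KO libraries (SD), a log2 fold change of 0.31 (standard error 0.167), and borealin (Cdca8) was at 0.35. The kinase of the complex, Aurkb, was at 283, 192, 163 and 199 CPM in Control and at 191, 197, 177 and 132 CPM in Prmt5 KO. Its ranges overlapped, and the log2 fold change was -0.27 (standard error 0.202, edgeR adjusted p = 0.787). Control 1 stood above the other 7 libraries for Aurkb.

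Aurka, the Aurora kinase of spindle poles, was at 249.8, 192, 246 and 237 CPM in Control 1 to 4 and at 361, 250.2, 273 and 264 CPM in Prmt5 KO 1 to 4. The groups only just failed to overlap, with Prmt5 KO 2 nearly level with Control 1, and they overlapped with DESeq2 size factors or upper-quartile factors. The log2 fold change was 0.31 (standard error 0.163, edgeR adjusted p = 0.670), and 0.18 without Prmt5 KO 1. Plk1, the polo-like kinase of mitotic entry, whose exons overlap those of Gm44985 on the opposite strand, was at 127, 131, 145 and 157 CPM in Control and at 181, 157, 88.2 and 316 CPM in Prmt5 KO. Prmt5 KO held both the lowest and the highest Plk1 value of the 8 libraries (log2 fold change 0.40, standard error 0.300), and the log2 fold change was 0.02 without Prmt5 KO 4 and -0.19 without both Prmt5 KO 1 and Prmt5 KO 4.

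The spindle checkpoint genes differed among themselves. Mad2l1 encodes Mad2, which binds and blocks Cdc20 until chromosomes are attached, and in Control it was the most abundant of the 4 per transcript length, level with Bub1 within its SD and just below it when counted on the coding transcript. It was at 192, 159, 111 and 118 CPM in Control 1 to 4 and at 100.5, 95.7, 117 and 45.1 CPM in Prmt5 KO 1 to 4. All 4 Prmt5 KO libraries lay below the Control mean, but Prmt5 KO 3 was within the Control range. Its log2 fold change was -0.69 (standard error 0.287, edgeR adjusted p = 0.563), and -0.47 without Prmt5 KO 4. The checkpoint kinase Bub1 was at 0.30 (standard error 0.152), with all 4 Prmt5 KO libraries above the Control mean, the kinase Ttk at 0.21 and Bub1b at 0.02 on the log2 fold change scale.

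Cdc20, the activator of the anaphase-promoting complex that Mad2 blocks, was at 328, 249.6, 341 and 278 CPM in Control 1 to 4 and at 480.1, 339, 339.7 and 395 CPM in Prmt5 KO 1 to 4. Prmt5 KO 2 and Prmt5 KO 3 lay within the Control range and the other 2 above it (log2 fold change 0.38 with a standard error of 0.161, edgeR adjusted p = 0.579). Without Prmt5 KO 1 the log2 fold change was 0.26. Ube2c, the ubiquitin-conjugating enzyme of the same complex, was at 586, 573, 543 and 517 CPM in Control and at 591, 502, 501 and 568 CPM in Prmt5 KO. Its libraries lay close together, with a log2 fold change of -0.04 (standard error 0.119). Exons of Cdc20 overlap those of Elovl1 on the opposite strand.

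At the kinetochore, Cenpe, the motor that carries chromosomes to the spindle equator, was at 96.3, 90.2, 101 and 90.6 CPM in Control 1 to 4 and at 159, 143, 145 and 83.7 CPM in Prmt5 KO 1 to 4. Prmt5 KO 1, 2 and 3 were above all Control libraries, while Prmt5 KO 4 was below all of them. The log2 fold change was 0.49 (standard error 0.222, edgeR adjusted p = 0.599). Ndc80, whose protein grips microtubules, was at 189, 151, 143 and 121 CPM in Control and at 146, 217, 112 and 49.3 CPM in Prmt5 KO. Prmt5 KO 4 was again the lowest library, and the log2 fold change of -0.20 (standard error 0.340) became 0.07 without it. Its partner Nuf2 was at 0.20, Cenpf at 0.31 and the centromeric histone Cenpa at -0.10 on the log2 fold change scale, with Cenpa at 232 ± 33.7 CPM over the 4 Control libraries and 216 ± 49.1 CPM over the 4 Prmt5 KO libraries (SD).

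The cytokinesis genes all lay a little above 0: Anln, an actin-binding scaffold of the cleavage furrow, at 0.23, Prc1, which bundles the central spindle, at 0.20, and Ect2, the activator of RhoA at the cell equator, at 0.17. Their standard errors ran from 0.209 to 0.251, larger than or close to the values themselves, and without Control 2 and Control 3 Prc1 was at -0.05 and Ect2 at -0.13. Prc1 was at 187 ± 50.4 CPM over the 4 Control libraries and 214 ± 47.4 CPM over the 4 Prmt5 KO libraries (SD), and its exons overlap those of Rccd1 on the opposite strand.

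**Figure D3:**
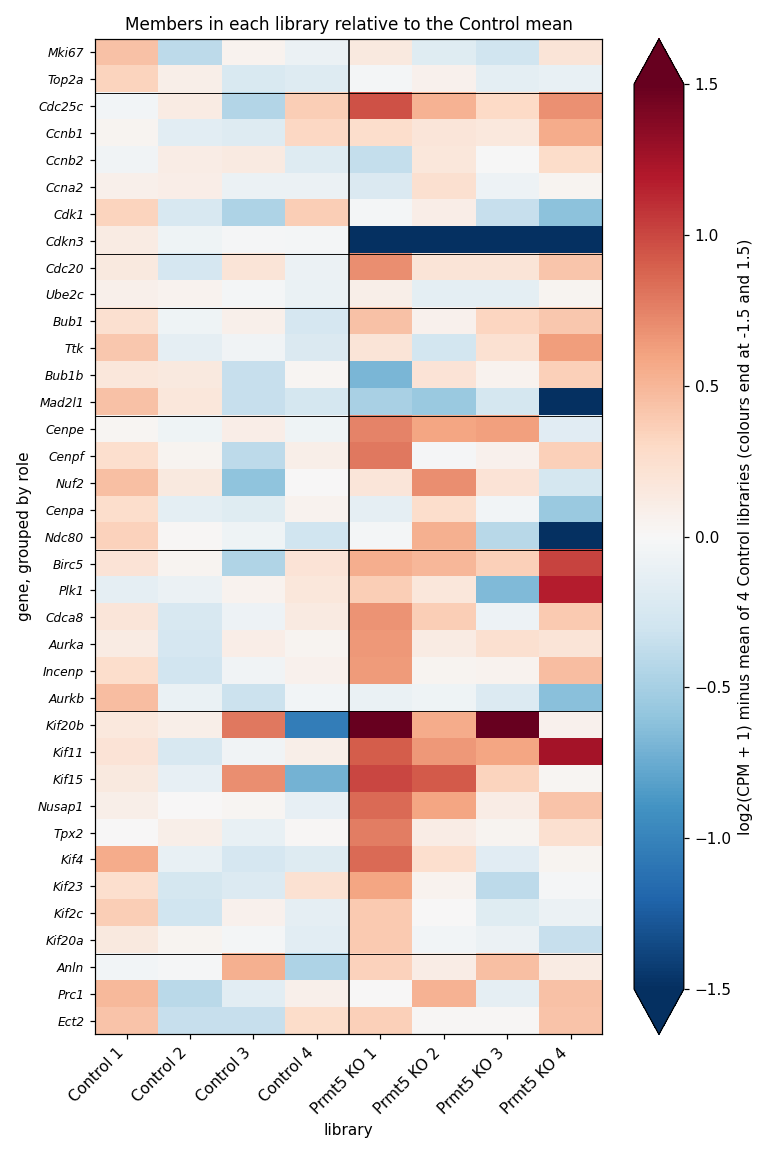
Level of each gene (rows, grouped by role) in each of the 8 libraries (columns), as log2(CPM + 1) minus the mean of the 4 Control libraries; red is above and blue below, and colours end at -1.5 and 1.5. Cdkn3 is blue in all 4 Prmt5 KO libraries and Kif11 red in all 4, while Control 1 is red for most genes and Prmt5 KO 4 is blue for Mad2l1, Ndc80 and Cenpa.

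Single libraries shifted many members together. Control 1 held the highest Control value for 25 of the 37 genes, and Prmt5 KO 1 the highest Prmt5 KO value for 17. Control 3 and Prmt5 KO 3 each held the lowest value of their group for 15. The mean of the 37 genes was 7.67, 7.37, 7.38 and 7.39 log2(CPM + 1) for Control 1 to 4 against 7.75, 7.59, 7.47 and 7.50 for Prmt5 KO 1 to 4, so Control 1 exceeded all Prmt5 KO libraries but Prmt5 KO 1. The 37 genes together took 0.920% ± 0.0979 of the TMM-scaled library size in the Control libraries against 1.01% ± 0.0998 for Prmt5 KO (SD, n = 4). Prmt5 KO 1 was also the library with the high somatic markers, and without it the median log2 fold change of the 37 was 0.18. The coefficient of variation within a group had a median over members of 17.8% in Control and 21.6% in Prmt5 KO, against 31.7% and 39.9% over all genes tested, with no matching for level.

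Levels per transcript length spread over a wide range. On the scale of Control CPM per kilobase of the transcript with the most counts, Ube2c was the highest (573.5 ± 32.2). Cenpa (225 ± 32.7) and Kif20a (202 ± 17.6) followed, and Kif20b was the lowest (2.50 ± 1.24) (SD, n = 4 each). The most abundant genes of the other roles on that scale were Ccnb2 (187 ± 19.5), Incenp (157 ± 24.9), Top2a (142 ± 26.9), Mad2l1 (86.3 ± 22.5) and Prc1 (62.0 ± 16.8), in Control CPM per kilobase (SD, n = 4 each). These ranks depend on the transcript used. Cdk1 was scaled by a transcript of 4375 bases, while a coding one of 1253 bases held 99.0% as many counts in Control. On that length Cdk1 would lie above Ccnb2, Kif20a and Cenpa. Birc5 was scaled by 3334 bases and also has a coding transcript of 947 bases. The Cenpa value rests on a transcript annotated for nonsense-mediated decay, of 1031 bases. On its protein-coding transcript of 1466 bases Cenpa was at 151 ± 22.3 (SD, n = 4), below Kif20a and Ccnb2. Mad2l1 was likewise counted on a retained-intron transcript, and at 83.6 ± 21.9 (SD, n = 4) on its coding one. Cenpa and Kif20a, and also Incenp and Top2a, differed by less than the larger of their SDs. Cdkn3 was at 13.4 ± 0.832 in Control and 2.01 ± 1.12 with Prmt5 lost, in CPM per kilobase (SD, n = 4), which made it the lowest of the 37 in Prmt5 KO. Of the 37, 32 had at least 100 counts in every library; the others were Cdc25c, Cdkn3, Kif4, Kif15 and Kif20b. Methods that copy RNA from its 3′ end favour short transcripts on this scale.

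**Figure D4:**
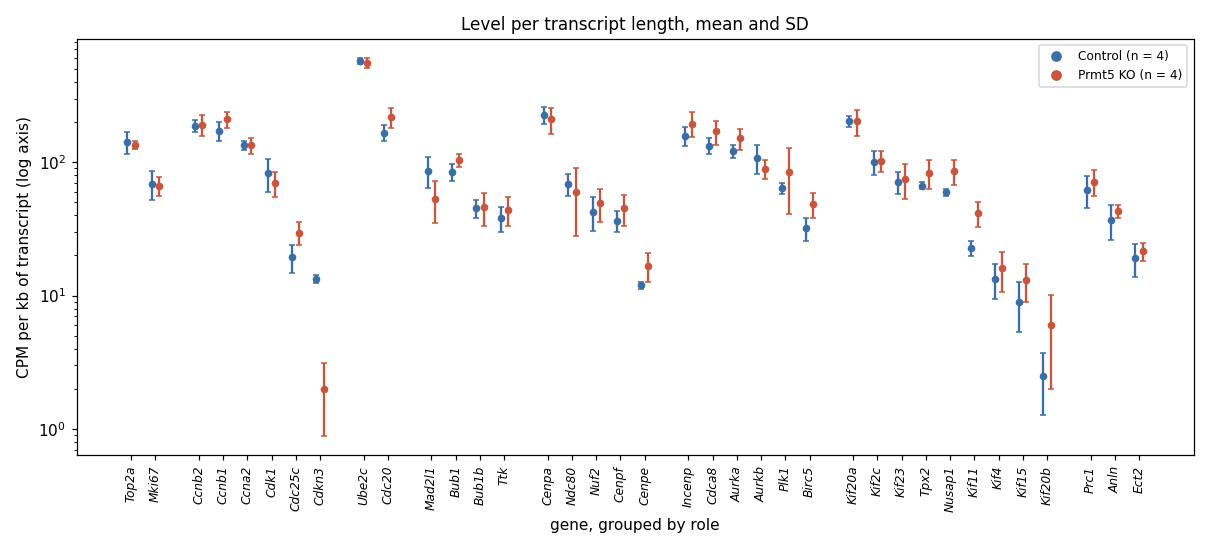
CPM per kilobase of transcript (y axis, log scale) for each gene, grouped by role; points are means of 4 libraries, blue for Control and red for Prmt5 KO, with bars for the SD. Ube2c lies at the top, near 574 in Control, and the Control and Prmt5 KO points lie farthest apart for Cdkn3 (13.4 and 2.01), Kif20b (2.50 and 6.05) and Kif11 (22.7 and 41.6).

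Transcript choice was examined, since PRMT5 methylates splicing proteins. For 23 members with a second transcript of at least 100 counts, its counts as a percent of the first were compared. The lowest p was 0.0286, for Ccnb1 and Cenpa, in an exact permutation test, taken two-sided. This is the smallest p that 4 against 4 libraries allow. After Benjamini-Hochberg adjustment for 23 ratios none was below 0.329. With this floor, a change in only a few ratios could not pass after adjustment, however large it was. The adjusted values therefore cannot decide whether transcript choice changed. For Ccnb1 the protein-coding transcript of 8 exons was at 83.7% ± 0.463 of the 9-exon transcript in Control against 87.1% ± 2.16 for Prmt5 KO (SD, n = 4), with no overlap. For Cenpa the protein-coding transcript was at 95.6% ± 1.70 of the transcript annotated for nonsense-mediated decay in Control, against 99.8% ± 1.82 for Prmt5 KO (SD, n = 4), also with no overlap. Transcripts of a gene share reads, which may be counted for each of them.

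Other genes of mitosis were taken from 7 lists of 128 genes, all of them tested. None passed in edgeR at an adjusted p of 0.05, where 0.0273% of all genes did. At an unadjusted p under 0.05, 11 of the 128 were higher and 3 lower, against 4.47% and 3.69% of all genes. The median log2 fold change was 0.03 (-0.03 without Prmt5 KO 1 and Prmt5 KO 4). DESeq2 called 3 of them, Wapl, Psrc1 and Gtse1, where 0.974% of all genes passed, and limma voom 0, where 0.0091% did. Gtse1, a p53-inducible protein that binds microtubules, was at 137, 109, 110 and 100.1 CPM in Control 1 to 4 and at 217, 172, 207 and 163 CPM in Prmt5 KO 1 to 4, with no overlap and a log2 fold change of 0.73 (standard error 0.183, edgeR adjusted p = 0.261). Psrc1, also p53-inducible and bound to spindle microtubules, was at 2.87, 7.59, 7.13 and 2.81 CPM in Control and at 13.3, 31.6, 17.6 and 29.7 CPM in Prmt5 KO, again with no overlap (log2 fold change 2.21 with a standard error of 0.576, edgeR adjusted p = 0.292). Wapl, which releases cohesin from chromosomes, was at 187, 150, 263 and 169 CPM in Control and at 292, 295, 357 and 399.8 CPM in Prmt5 KO (log2 fold change 0.81 with a standard error of 0.191, edgeR adjusted p = 0.244). All 4 Prmt5 KO libraries were above Control for each of these 3 genes. Over the 128 genes, the groups did not overlap for 5 with Prmt5 KO higher and 3 with Prmt5 KO lower. Over all genes tested the shares were 2.63% higher and 2.27% lower.

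By list, mitotic entry control and MuvB regulators had a median log2 fold change of 0.30 over 21 genes, with Cks2, a Cdk subunit, at 0.61. The list of the spindle checkpoint and the KMN network, the microtubule-binding core of the kinetochore, had a median of 0.25 over 16 genes, 10 above 0 and 6 below, with Mad1l1 at 0.79 and Zw10 at 0.54. The lowest of that list was Knl1, the scaffold of the network, at -0.98 (edgeR adjusted p = 0.674), with all 4 Prmt5 KO libraries below the Control mean and overlapping groups. Spindle assembly and centrosome had a median of 0.10 over 31 genes, with Cep55, a midbody protein, at 0.75. Cohesin, separase and condensin had a median of 0.01 over 19 genes, with Cdca5, which encodes the cohesin protector sororin, at 0.48. The inner centromere network was at -0.0045 over 17 genes, with Oip5 at 1.27 and Cenpo at -0.45, and the anaphase-promoting complex itself at -0.06 over 16, with Cdc26 at 0.49 and Anapc4 at 0.36. The further cytokinesis genes were at -0.17 over 8, with Vps4a at -1.07 and Rhoa at 0.36. Exons of Oip5, Cenpo, Mad1l1, Vps4a and Rhoa overlap other genes of the opposite strand, which makes their values uncertain.

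Genes of DNA replication and S phase, the step before mitosis, were set beside the members. Of 49 tested, 0 passed in edgeR. At an unadjusted p under 0.05, 0 were higher and 4 lower, against 4.47% and 3.69% of all genes. The median log2 fold change was -0.04 (0.02 without Control 1), against 0.21 for the mitosis genes. The groups did not overlap for 4 of the 49, all with Prmt5 KO lower, against 4 higher and 1 lower of the 37 mitosis genes and 2.63% higher and 2.27% lower of all genes. Gins4, a subunit of the replicative helicase, was at 159, 194, 131 and 156 CPM in Control 1 to 4 and at 74.6, 80.0, 100.3 and 89.0 CPM in Prmt5 KO 1 to 4. It had the lowest p of that list (log2 fold change -0.90 with a standard error of 0.196, edgeR adjusted p = 0.202, DESeq2 adjusted p = 0.00640), and Rfc1, of the clamp loader, was at -0.55. The difference between the 2 lists was not tested.

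**Figure D5:**
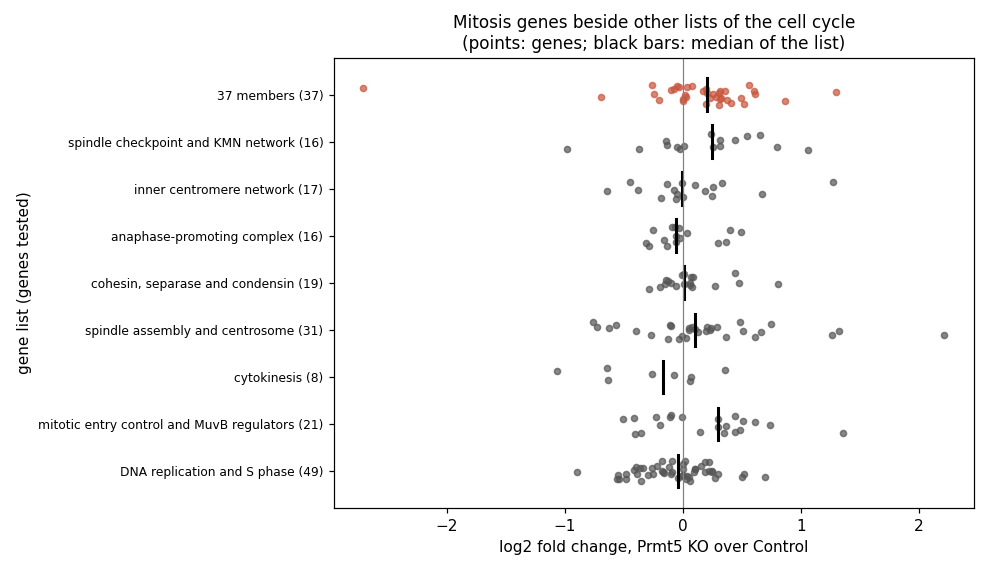
Log2 fold change, Prmt5 KO over Control (x axis), of each tested gene in the 37 mitosis and spindle genes (red), in 7 further mitosis lists and in the DNA replication list (grey); black bars are medians and numbers are genes tested. The median of the members is 0.21 and that of the replication list -0.04, with wide overlap of single genes, and Cdkn3 and Psrc1 lie outermost at -2.71 and 2.21.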

How the data were processed

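RNA was measured in 8 libraries of sorted germ cells, 4 Control and 4 Prmt5 KO. The authors deposited, per library, read counts by transcript as whole numbers, listing only transcripts with at least 1 count. GRCm38 and mm10 are the builds in the submitters' processing notes. For the aligner, counter, annotation release and strand, nothing was given in the sources used here. Identifiers were matched to GENCODE M21 (64258 of 66262, 97.0%; unmatched ones held 1.75% to 1.9% of counts). Reads can be counted for several transcripts of a gene, so the value of a gene was its transcript with the highest total. The design assumed gene counts, and the same test was used on these values.

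Genes passing edgeR's filterByExpr (minimum count 10, minimum total 15) were scaled by TMM and fitted over the 8 libraries in edgeR (quasi-likelihood test, robust), with Benjamini-Hochberg adjustment over all 10990 genes at 0.05. The standard error was taken as the size of the log2 fold change over the root of F. Levels in CPM used TMM-scaled library sizes. Means per library used log2(CPM + 1). Alternatives changed the tool, the scaling, the filter, the spread estimate, the replicate block, left-out libraries, the gene value and depth.

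Members and lists were chosen with earlier results of these data known, so counts over them are descriptions. Values were given for Prmt5; for members with an unadjusted p under 0.05, the 3 lowest log2 fold changes and the most abundant per length in each role; and for 2 genes of each further list. Aurka, Cdc25c, Mki67, Ndc80, Plk1, Knl1, Tek and the library values of Gtse1, Psrc1 and Wapl were chosen after their values were seen. The test was checked on simulated counts for this comparison (10990 genes): it called 34% of 100 genes changed 2-fold, 88% of 100 changed 4-fold and 6 of 10561 unchanged genes, among genes above a set level. Tests ran in edgeR 4.0.16, with DESeq2 1.42.0 and limma 3.58.1 as alternatives, under R 4.3.3, and matplotlib 3.10.9 drew the plots.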

Additional observations from a re-analysis of the deposited data

Results flagged for a closer look

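Among 132 groups of 4 values (members, list means, second transcripts and marker sums, by genotype), 6 had 1 library standing well away from its 3 neighbours. About 1 in 20 would do so by chance, which is 6.6 of 132, and the values are not independent. The mean of the 37 mitosis genes was high in Control 1 (7.67 log2(CPM + 1), the other Control libraries at 7.37 to 7.39). Kif4, a chromosome-bound kinesin, was also high in Control 1 (96.0 CPM, the others at 54.3 to 60.3). The somatic gonad and mesonephros markers were high in Prmt5 KO 1 (659 CPM, the others at 170 to 218). As a percent of the first transcript, the second transcript of Cdc20 was low in Control 4 (58.4%, the others at 64.0% to 64.7%), that of Nusap1 was high in Control 4 (98.3%) and that of Cdk1 was low in Control 3 (97.8%).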

How the results depend on the processing

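No member was called at an adjusted p of 0.05 in 18 of 19 alternatives, with DESeq2 calling 1 higher and 1 lower. DESeq2 also called 3 further mitosis genes higher and 1 replication gene lower. Over all genes, edgeR called 3, DESeq2 107, limma voom 1, no filter on low counts 7, and the sum of transcripts and thinning to equal depth 1 each. On leaving out 1 library, 1 to 2 genes were called. Leaving out Control 2 and Control 3 gave 0, and leaving out Prmt5 KO 1 and Prmt5 KO 4 gave 1. Cdkn3, with 5 to 79 counts a library, was the scarcest member. The cause of these differences was not tested.

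At an unadjusted p under 0.05, leaving out 1 library gave 3 to 9 members higher and 1 to 2 lower. Without Control 2 and Control 3 there were 2 higher, and without Prmt5 KO 1 and Prmt5 KO 4 there were 2 higher and 1 lower. For these counts the share of all genes in the same libraries was not taken, so whether they depart from it is not known. Members whose groups did not overlap numbered 4 to 8 higher (all genes 3.89% to 4.63%) and 1 to 2 lower (3.57% to 4.12%) on leaving out 1 library. Without Control 2 and Control 3 there were 6 higher (16.2%, all genes 7.38%) and 4 lower (10.8%, all genes 7.59%). Without Prmt5 KO 1 and Prmt5 KO 4 there were 4 higher (10.8%, all genes 8.93%) and 2 lower (5.41%, all genes 7.38%).

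The direction was the same in all 19 alternatives for 22 of the 37 members, and 15 changed sign in at least 1, most of them near 0. With upper-quartile factors Ccnb2 was at -0.013, Ccna2 at -0.038, Bub1b at -0.027 and Kif2c at -0.020 log2 fold change. In limma voom Ccna2 was at -0.016, Bub1b at -0.087, Kif2c at -0.0051 and Kif23 at -0.030. Kif20a was at 0.0025 with DESeq2 or its size factors, 0.031 with no filter, 0.012 with the sum of transcripts, where Ccna2 was at -0.045, and 0.0025 without Control 2 and Control 3. Without these same libraries Prc1 was at -0.053, Bub1b at -0.061, Kif2c at -0.086, Kif23 at -0.13 and Ect2 at -0.13. Thinned, Bub1b was at -0.0041. Without Prmt5 KO 1 and Prmt5 KO 4, Cenpa was at 0.10, Oip5 at -0.32, Ttk at -0.020, Ndc80 at 0.12, Plk1 at -0.19, Kif2c at -0.11, Kif23 at -0.18 and Ect2 at -0.031.

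On leaving out 1 library, the log2 fold change ran from -0.15 to 0.051 for Top2a, -0.054 to 0.15 for Ccnb2, -0.083 to 0.00098 for Ube2c, -0.24 to 0.023 for Cenpa, -0.16 to 0.099 for Kif20a, -0.17 to 0.11 for Mki67, -0.080 to 0.071 for Ccna2, -0.11 to 0.20 for Bub1b, -0.55 to 0.067 for Ndc80, -0.11 to 0.16 for Kif2c and -0.13 to 0.22 for Kif23.

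Deviations of same-numbered libraries correlated at 0.0694, 0.0396, 0.0023 and 0.0504. For replicates 1, 2 and 4 no library of the other group correlated better than the one of the same number, while for replicate 3 others did. Values this small cannot show whether the replicate numbers pair the libraries, and the main test left them unpaired. With the replicate block, 1 gene and 0 members were called, Ccna2 was at -0.0037 and Bub1b at -0.015.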
